A study of Arabidopsis thaliana with 8 samples.

Results

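The plastid genome of Arabidopsis encodes, beside the proteins of photosynthesis, part of the machinery that reads it: subunits of an RNA polymerase, ribosomal proteins and a few housekeeping proteins. The genes described here are those whose symbols start with rpo, rps, rpl or ycf, together with clpP, accD, matK, cemA and ccsA. The rule used symbol and plastid location and no measured value, although it was written with earlier results of these data known. They comprised 33 probe sets for 32 genes, out of 22746 probe sets tested. The gene rps12 had 2 probe sets, and 7 probe sets (both of rps12, and those of rpl2, rpl23, ycf2, rps7 and ycf1) were assigned to 2 gene IDs of the same symbol, so the copies of these genes cannot be told apart.

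Transcript levels were measured on Affymetrix ATH1 arrays in mature whole leaves of Arabidopsis thaliana, wild type of strain Columbia-0, to follow the response to neonicotinoid insecticides. All plants were 4 weeks old at the time of treatment. The groups were plants given 4 mM imidacloprid, plants given 4 mM clothianidin, plants given 4 mM salicylic acid and untreated plants, each harvested after 4 days and each represented by 2 arrays. One array of each group came from each of a pair of independent experiments. The controls received nothing, and no mock treatment is described. Imidacloprid and clothianidin are neonicotinoids that both carry a nitroguanidine group. In imidacloprid this group is part of a closed imidazolidine ring and the molecule has a chloropyridine ring, whereas clothianidin is open-chained with a chlorothiazole ring. Salicylic acid is a plant hormone of defence against pathogens.

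As background, plastid genes are transcribed by a bacterial-type RNA polymerase, whose core subunits are encoded in the plastid by rpoA, rpoB, rpoC1 and rpoC2, and by phage-type polymerases encoded in the nucleus. The transcripts are translated on bacterial-type ribosomes whose proteins come partly from plastid rps and rpl genes and partly from nuclear genes. Many plastid genes lie in clusters that are transcribed together and then processed, and most photosynthetic proteins of the leaf depend on this system either directly or through their plastid-encoded partners.

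The deposited values are log2 expression summaries made by RMA, so a difference of 1 is a 2-fold change. Array means lay between 5.23 and 5.27. The values of the 33 probe sets lay between 6.32 and 14.76, above 2.49, the mean 25th percentile of the arrays. This is not a test of detection or of the upper limit of the signal. For markers and nuclear lists, a gene is called measured only where the probe table assigned a probe set to it alone. As 8730 probe sets had no entry in that table, other listed genes may be on the array unnamed. The leaf markers RCA and LHCB4.1, the only 2 of 9 listed that were measured, had high values on all arrays, with array medians between 13.03 and 14.30. Their imidacloprid minus untreated differences were -0.38 for RCA and -0.85 for LHCB4.1, with limma adjusted p-values of 0.675 and 0.402. Both were lower without overlap, which held for 23.8% of all probe sets. Of the 3 root markers PYK10 was measured, at 4.91 and 2.61 with imidacloprid, 6.40 and 4.61 with clothianidin, 9.09 and 4.49 with salicylic acid, and 5.92 and 4.59 untreated. The part of these markers in the results was not tested. No listed marker of flowers or seeds was measured in this sense. The difference between 3′ and 5′ actin control probe sets, a measure of RNA integrity and labelling, was 0.87 and 1.11 on the imidacloprid arrays, 1.04 and 1.75 with clothianidin, 0.74 and 1.41 with salicylic acid, and 0.85 and 2.17 in untreated leaves. In pairs of values given here, replicate 1 comes first and replicate 2 second.

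Imidacloprid-treated leaves had lower values than untreated leaves for nearly all of these genes. The difference was negative for 32 of 33 probe sets, where 40% of all probe sets were negative, and its median was -0.90, where the median over all probe sets was 0.02. Within replicate 1 the median was -1.01 and within replicate 2 it was -0.81. Here and below, such values compare arrays of the same replicate number, which the labels do not tie to the same experiment. On 30 of 33 probe sets both imidacloprid arrays lay below both untreated arrays, which held for 23.8% of all probe sets. No single gene passed the test: limma called 0 of 33 at an adjusted p under 0.05, where it called 0.312% of all probe sets. At an unadjusted p under 0.05, 21 of 33 were lower and 0 were higher, where 10.6% of all probe sets were lower and 8.71% were higher. The 21 became 11 to 13 when 1 untreated or 1 imidacloprid array was left out, and a replicate block or another variance model also called 0 of 33 at the adjusted threshold. A permutation of 2 arrays against 2 allows no exact p below 0.333. The limma p-values rest instead on the replicate spread of all 4 groups, fitted together, and on a prior from the spread of all probe sets. In whole leaves, fewer cells or plastids of a kind and less RNA in each cannot be told apart.

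**Figure D1:**
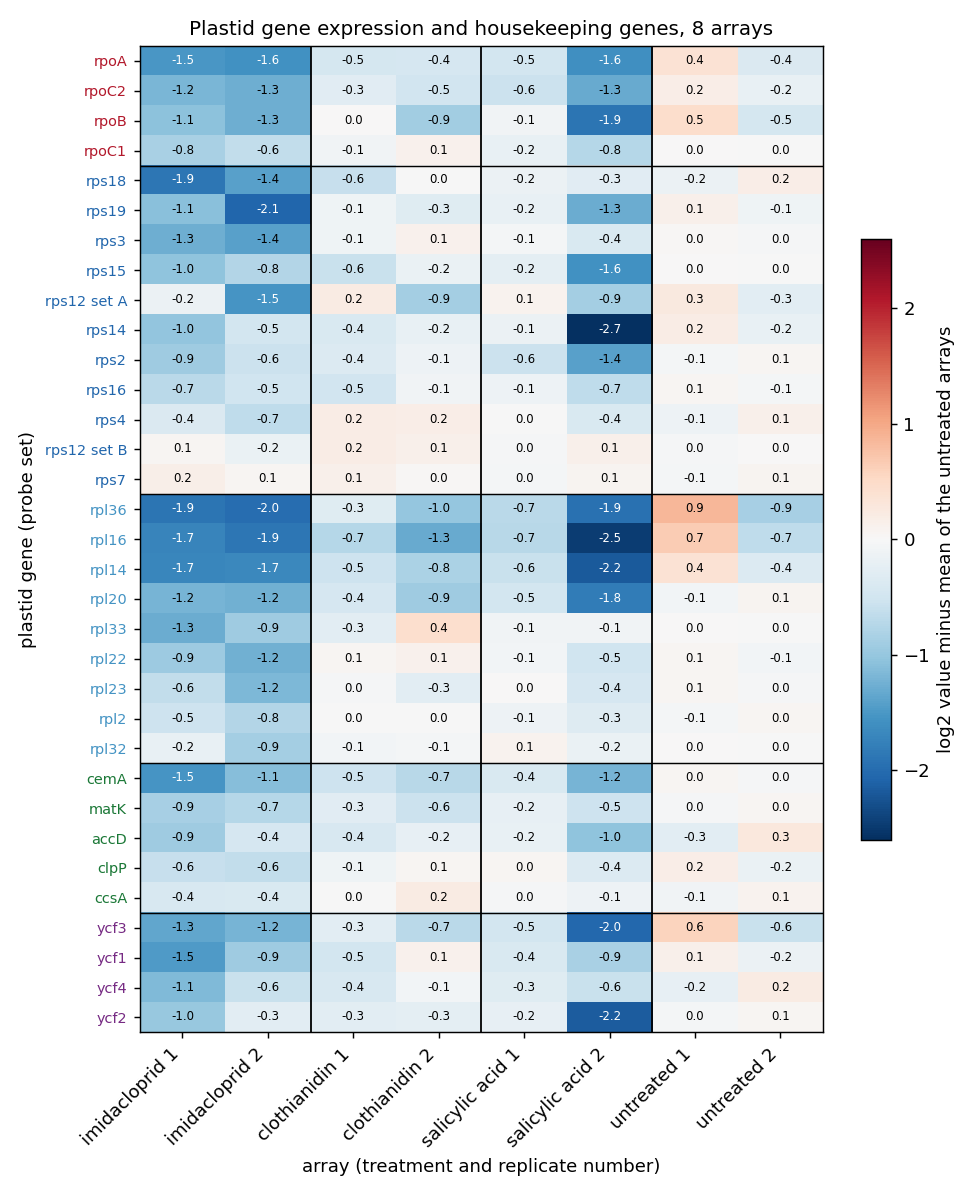
Log2 value of each of the 33 probe sets (rows, coloured by role) on each of the 8 arrays (columns), minus the mean of the 2 untreated arrays. The imidacloprid columns are blue in nearly every row, salicylic acid replicate 2 is blue in many rows while replicate 1 is paler, and rps7 and rps12 set B are nearly white throughout.

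The RNA polymerase subunits were lower with imidacloprid in all 4 cases, with a median difference of -1.19. The gene rpoA (ArthCp055), for the α subunit that assembles the core enzyme, had values of 10.68 and 10.62 with imidacloprid, 11.73 and 11.75 with clothianidin, 11.71 and 10.60 with salicylic acid, and 12.56 and 11.82 in untreated leaves. The imidacloprid arrays lay below all clothianidin and untreated arrays, and salicylic acid replicate 2 was as low as they were. Imidacloprid minus untreated, rpoA differed by -1.54 (SE 0.43), 2.91-fold lower, with a limma adjusted p of 0.167.

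For rpoB (ArthCp014), which encodes the β subunit, the values were 8.13 and 7.94 with imidacloprid, 9.22 and 8.30 with clothianidin, 9.11 and 7.31 with salicylic acid, and 9.65 and 8.74 untreated. Replicate 1 exceeded replicate 2 in every group, and the difference of -1.16 (SE 0.72) between imidacloprid and untreated leaves had an interval that included 0. The β′ subunit gene rpoC1 (ArthCp013) had values of 11.19 and 11.40 with imidacloprid, 11.95 and 12.16 with clothianidin, 11.85 and 11.29 with salicylic acid, and 12.06 and 12.02 untreated. Clothianidin and untreated leaves overlapped for this gene, and salicylic acid replicate 2 lay between the imidacloprid arrays. The β″ subunit gene rpoC2 (ArthCp012) had values of 9.78 and 9.70 with imidacloprid, 10.67 and 10.47 with clothianidin, 10.40 and 9.64 with salicylic acid, and 11.14 and 10.77 untreated. Here the untreated arrays were the 2 highest, the clothianidin arrays came next, and salicylic acid replicate 2 was the lowest of the 8. Between imidacloprid and untreated leaves the differences were -0.74 (SE 0.21) for rpoC1 and -1.21 (SE 0.28) for rpoC2, with limma adjusted p-values of 0.169 and 0.129.

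Genes for proteins of the small ribosomal subunit differed widely among themselves. Of 11 probe sets, 10 were lower with imidacloprid than in untreated leaves, 8 of them without overlap, and the median difference was -0.75. Over all probe sets, 23.8% were lower without overlap. The smallest adjusted p of all 33 probe sets belonged to rps3 (ArthCp061), a protein at the site where mRNA enters the ribosome in bacteria. It had values of 10.97 and 10.82 with imidacloprid, 12.11 and 12.34 with clothianidin, 12.18 and 11.83 with salicylic acid, and 12.26 and 12.20 in untreated leaves. Both imidacloprid arrays lay below the 6 others, of which the salicylic acid arrays lay below both untreated arrays and the clothianidin arrays overlapped with both of these groups. The difference from untreated leaves was -1.34 (95% interval -1.73 to -0.94), or 2.53-fold lower, and the limma adjusted p was 0.062. It dropped to 0.0403 when either salicylic acid array was left out of the fit.

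The next values show the same separation for rps18 and a wider spread for rps19. The gene rps18 (ArthCp044) had values of 9.34 and 9.81 with imidacloprid, 10.63 and 11.20 with clothianidin, 11.07 and 10.92 with salicylic acid, and 11.06 and 11.39 untreated. For rps19 (ArthCp063) the values were 11.53 and 10.55 with imidacloprid, 12.51 and 12.30 with clothianidin, 12.42 and 11.33 with salicylic acid, and 12.75 and 12.50 untreated. The imidacloprid arrays were the 2 lowest for rps18, whereas for rps19 salicylic acid replicate 2 lay between them. Relative to untreated leaves, imidacloprid gave differences of -1.65 (SE 0.27) for rps18 and -1.58 (SE 0.49) for rps19, with limma adjusted p-values of 0.0865 and 0.189.

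At the other end stood rps7, rps12 and rps4. The values of rps7 (ArthCp088 and ArthCp069), a gene of the inverted repeat, were 14.76 and 14.67 with imidacloprid, 14.75 and 14.64 with clothianidin, 14.56 and 14.68 with salicylic acid, and 14.55 and 14.68 untreated. The groups overlapped, and the imidacloprid minus untreated difference of 0.10 had a 95% interval from -0.12 to 0.32. These values lay close to the highest value on each array, between 14.94 and 15.49, and whether the signal neared its ceiling was not tested. For rps4 (ArthCp024), whose bacterial counterpart helps to start assembly of the small subunit, the values were 13.50 and 13.21 with imidacloprid, 14.08 and 14.06 with clothianidin, 13.86 and 13.48 with salicylic acid, and 13.75 and 14.02 untreated. The clothianidin arrays were the 2 highest of the 8 and the imidacloprid arrays lay below both untreated arrays, by -0.53 (SE 0.18) on average.

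The 2 probe sets of rps12 (ArthCp001 and ArthCp047), called set A and set B here, disagreed. This protein sits near the decoding centre of the ribosome, and its transcript is joined by trans-splicing from separately transcribed parts. Set B had values of 14.00 and 13.77 with imidacloprid, 14.13 and 14.08 with clothianidin, 13.90 and 14.07 with salicylic acid, and 13.91 and 13.96 untreated. Set A had 10.50 and 9.11 with imidacloprid, 10.87 and 9.76 with clothianidin, 10.74 and 9.77 with salicylic acid, and 10.91 and 10.38 untreated. In set A replicate 1 exceeded replicate 2 in every group, and imidacloprid and untreated leaves overlapped in both. The imidacloprid minus untreated difference was -0.05 (95% interval -0.32 to 0.22) by set B and -0.84 (95% interval -2.62 to 0.94) by set A. Which parts of the transcript the probe sets cover was not analysed here. The 4 other small-subunit genes, rps2, rps14, rps15 and rps16, had differences between -0.90 and -0.61, all without overlap, against 23.8% of all probe sets.

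All 9 large-subunit genes were lower with imidacloprid than in untreated leaves, all without overlap, against 23.8% of all probe sets. Their median difference was -1.11. The lowest differences of the whole set were found here. For rpl36 (ArthCp057), among the smallest ribosomal proteins, the values were 9.44 and 9.34 with imidacloprid, 11.01 and 10.32 with clothianidin, 10.62 and 9.40 with salicylic acid, and 12.19 and 10.47 untreated. The gene rpl16 (ArthCp060) had 10.73 and 10.57 with imidacloprid, 11.70 and 11.12 with clothianidin, 11.72 and 9.98 with salicylic acid, and 13.09 and 11.79 untreated. For rpl14 (ArthCp059) they were 9.23 and 9.24 with imidacloprid, 10.38 and 10.09 with clothianidin, 10.35 and 8.73 with salicylic acid, and 11.29 and 10.56 untreated. In all 3 genes the imidacloprid replicates were close together, untreated replicate 1 stood above untreated replicate 2, and salicylic acid replicate 2 lay below replicate 1.

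The imidacloprid minus untreated difference of rpl36 was -1.94 (95% interval -3.82 to -0.06), or 3.83-fold lower, but it was -2.75 within replicate 1 and -1.12 within replicate 2. The corresponding differences were -1.79 (SE 0.73) for rpl16 and -1.69 (SE 0.58) for rpl14. Limma adjusted p-values were 0.247, 0.283 and 0.222 for rpl36, rpl16 and rpl14. The other 6 large-subunit genes, rpl2, rpl20, rpl22, rpl23, rpl32 and rpl33, had differences between -1.23 (rpl20) and -0.54 (rpl32).

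The 5 housekeeping genes were lower with imidacloprid as well, all without overlap with untreated leaves, against 23.8% of all probe sets. Their median difference was -0.68. The maturase gene matK (ArthCp003), which assists the splicing of plastid introns, had values of 12.10 and 12.22 with imidacloprid, 12.67 and 12.40 with clothianidin, 12.74 and 12.43 with salicylic acid, and 12.92 and 13.01 untreated. Its imidacloprid arrays were the 2 lowest and its untreated arrays the 2 highest of the 8. The difference of -0.81 (SE 0.15), or 1.75-fold lower with imidacloprid than in untreated leaves, had a limma adjusted p of 0.0978.

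The gene cemA (ArthCp034), for an envelope membrane protein linked to inorganic carbon uptake in the alga Chlamydomonas, had 11.11 and 11.55 with imidacloprid, 12.11 and 11.93 with clothianidin, 12.26 and 11.45 with salicylic acid, and 12.70 and 12.61 untreated. The untreated arrays were the highest and salicylic acid replicate 2 lay between the imidacloprid arrays. The catalytic subunit of the stromal Clp protease, clpP (ArthCp048), had 12.11 and 12.07 with imidacloprid, 12.59 and 12.77 with clothianidin, 12.76 and 12.35 with salicylic acid, and 12.88 and 12.54 untreated. Its 2 imidacloprid values were the lowest of the 8, and the other groups overlapped. With imidacloprid the difference from untreated leaves was -1.32 (SE 0.31) for cemA and -0.62 (SE 0.19) for clpP, with limma adjusted p-values of 0.129 and 0.185.

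Fatty acid synthesis in the plastid needs accD (ArthCp031), a subunit of acetyl-CoA carboxylase, which had 10.80 and 11.30 with imidacloprid, 11.32 and 11.52 with clothianidin, 11.54 and 10.69 with salicylic acid, and 11.46 and 12.00 untreated. Its salicylic acid replicates spanned the range from the lowest value of all to above untreated replicate 1. The gene ccsA (ArthCp073), for attachment of heme to c-type cytochromes, had 12.66 and 12.69 with imidacloprid, 13.06 and 13.30 with clothianidin, 13.04 and 12.94 with salicylic acid, and 12.99 and 13.17 untreated. Its 2 imidacloprid values were the lowest of the 8, the untreated arrays overlapped with those of clothianidin and of salicylic acid, and both clothianidin arrays lay above both salicylic acid arrays. The imidacloprid minus untreated differences were -0.68 (SE 0.37) for accD and -0.41 (SE 0.11), or 1.33-fold lower, for ccsA, with limma adjusted p-values of 0.398 and 0.154.

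The 4 ycf genes, named as conserved plastid reading frames before their roles were known, had a median imidacloprid minus untreated difference of -1.02. All 4 were lower without overlap, against 23.8% of all probe sets. The gene ycf3 (ArthCp023), an assembly factor of photosystem I, had 9.68 and 9.83 with imidacloprid, 10.75 and 10.32 with clothianidin, 10.55 and 8.99 with salicylic acid, and 11.61 and 10.46 untreated. Another photosystem I assembly factor, ycf4 (ArthCp033), had 11.96 and 12.53 with imidacloprid, 12.69 and 13.02 with clothianidin, 12.78 and 12.53 with salicylic acid, and 12.88 and 13.32 untreated. Both genes were lowest in imidacloprid leaves except for salicylic acid replicate 2, which was the lowest array for ycf3 and level with imidacloprid replicate 2 for ycf4. The differences were -1.28 (SE 0.65) for ycf3 and -0.85 (SE 0.27) for ycf4.

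The large reading frames ycf1 and ycf2 have been described as parts of the machinery that imports proteins into the plastid. For ycf1 (Arthcp087 and ArthCp070) the values were 10.41 and 10.96 with imidacloprid, 11.41 and 11.99 with clothianidin, 11.49 and 11.03 with salicylic acid, and 12.02 and 11.73 untreated. For ycf2 (ArthCp083 and ArthCp066) they were 8.31 and 9.02 with imidacloprid, 9.02 and 9.03 with clothianidin, 9.07 and 7.12 with salicylic acid, and 9.24 and 9.34 untreated. The imidacloprid arrays were the 2 lowest for ycf1, whereas for ycf2 a single array, salicylic acid replicate 2, was far below the rest. The imidacloprid minus untreated differences were -1.19 (SE 0.31) for ycf1 and -0.63 (SE 0.67) for ycf2, with limma adjusted p-values of 0.151 and 0.668.

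**Figure D2:**
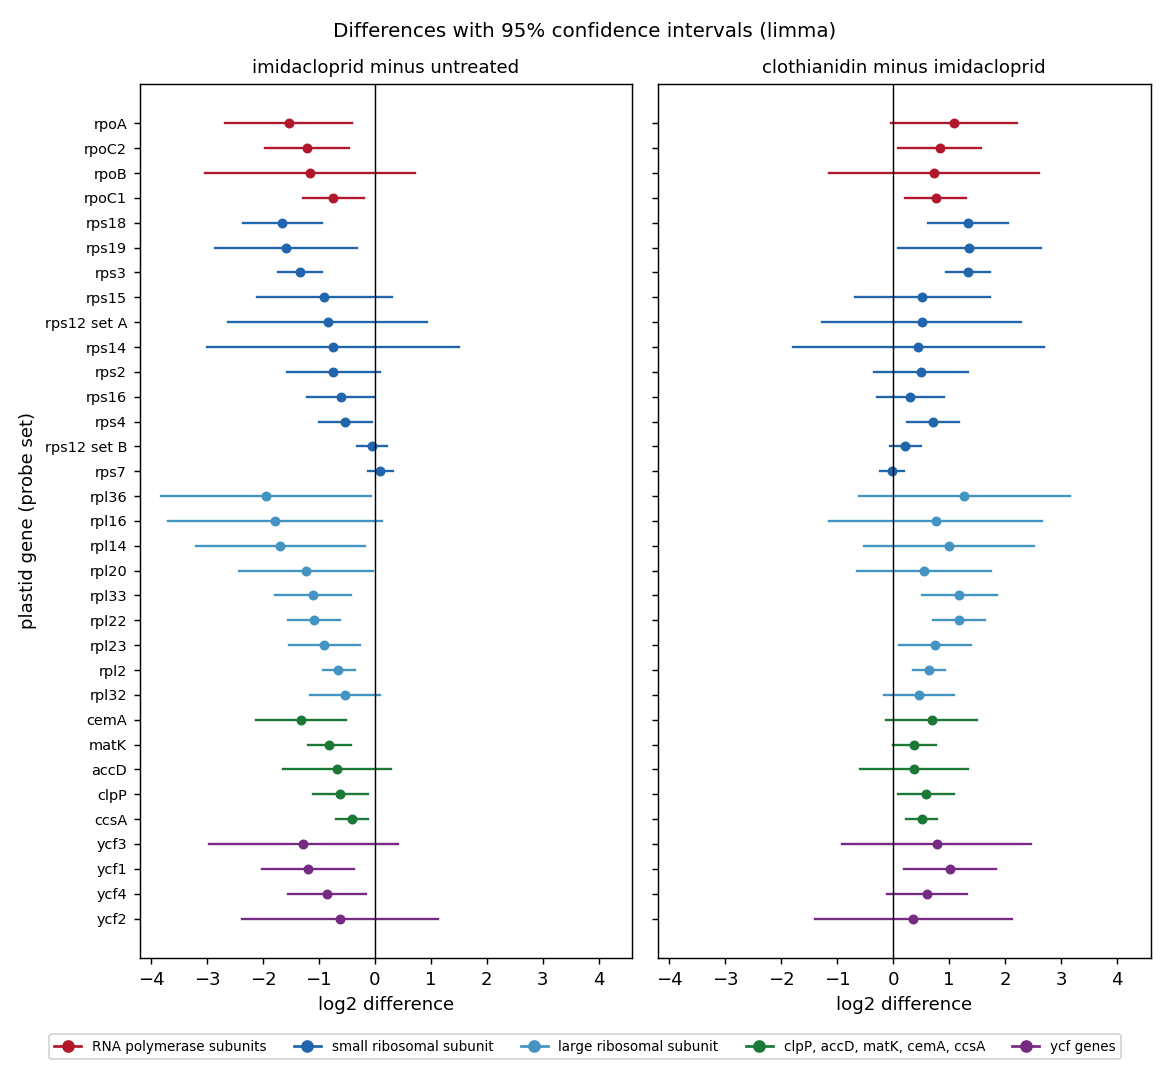
Log2 differences with 95% confidence intervals from limma for the 33 probe sets, ordered by role, for imidacloprid minus untreated (left) and clothianidin minus imidacloprid (right). Nearly all points lie left of 0 in the left panel and right of 0 in the right panel, and rpl36, rpl16 and rps14 have among the widest intervals while rps7, rps3 and rpl2 have narrow ones.

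Clothianidin-treated leaves lay closer to untreated leaves. The median clothianidin minus untreated difference of the 33 probe sets was -0.27, with 26 negative, where the median over all probe sets was -0.02 and 64.5% were negative. Limma called 0 of 33 and 0% of all probe sets at an adjusted p under 0.05. At an unadjusted p under 0.05 only matK was lower, 1 of 33 where 1.53% of all probe sets were lower, with a difference of -0.43 (95% interval -0.81 to -0.04). On 13 probe sets both clothianidin arrays lay below both untreated arrays, against 14.9% of all probe sets, and on 2 (rps4 and rps12 by set B) they lay above, against 10% of all probe sets. The lowest difference was -1.04 for rpl16 and the highest 0.19 for rps4, and the intervals of both included 0.

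The neonicotinoids, given at the same dose and harvested at the same time, differed in the same direction for 32 of 33 probe sets, which were higher with clothianidin, whereas 61.3% of all probe sets were lower. The median clothianidin minus imidacloprid difference was 0.69, where the median over all probe sets was -0.04. Both clothianidin arrays lay above both imidacloprid arrays on 31 of 33 probe sets, against 20% of all probe sets. Limma called 0 of 33 at an adjusted p under 0.05, where it called 0.0967% of all probe sets, and 13 of 33 were higher with clothianidin at an unadjusted p under 0.05, against 6.34% of all probe sets. The 13 became 8 without either clothianidin array and 20 without either salicylic acid array. This contrast shares the imidacloprid arrays with the contrast of imidacloprid against untreated leaves, so these contrasts are not independent.

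The widest gaps between the compounds were found for the ribosomal protein genes rps19, rps18 and rps3. The clothianidin minus imidacloprid difference of rps3 was 1.33 (95% interval 0.94 to 1.73) and had the smallest limma adjusted p of the set, 0.116. For rps18 it was 1.34 (95% interval 0.63 to 2.05) and for rps19 it was 1.36 (95% interval 0.09 to 2.64). The RNA polymerase genes differed by 0.73 (rpoB) to 1.09 (rpoA), and the housekeeping genes by 0.37 (accD) to 0.69 (cemA). For rps7 the compounds differed by -0.02, with a 95% interval from -0.24 to 0.20. For rps12 by set B the difference was 0.22 (95% interval -0.05 to 0.49), and for ycf2 it was 0.36 with an interval from -1.39 to 2.12 that leaves differences of either sign.

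Salicylic acid-treated leaves gave values that depended on the replicate. The median salicylic acid minus untreated difference was -0.47, with 31 of 33 negative, where 63.9% of all probe sets were negative. Within replicate 1 the median was -0.18 and within replicate 2 it was -0.73. Limma called 0 of 33 and 0% of all probe sets at an adjusted p under 0.05, and at an unadjusted p under 0.05 rpoC2 and rps2 were lower, 2 of 33 against 1.87% of all probe sets. Their differences were -0.94 (SE 0.28) for rpoC2 and -0.99 (SE 0.32) for rps2. On 18 of 33 probe sets the salicylic acid arrays lay below both untreated arrays, against 34.7% of all probe sets. The median was -0.85 without salicylic acid replicate 1 and -0.19 without salicylic acid replicate 2.

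Salicylic acid replicate 2 was lower than replicate 1 on 30 of 33 probe sets, with a median replicate difference of -0.56. The medians in the imidacloprid, clothianidin and untreated pairs were -0.04, 0.01 and -0.06. The salicylic acid replicates also differed most over all probe sets, with a median absolute difference of 0.30. The corresponding values were 0.18, 0.21 and 0.23 in the imidacloprid, clothianidin and untreated pairs. Over the 33 probe sets the salicylic acid value was 0.56. Salicylic acid replicate 2 was the lowest of the 8 arrays for 12 of 33 probe sets, against 15% of all probe sets. The largest gap was found for rps14, a small-subunit gene named here after its values were seen, which had 8.89 and 6.32 with salicylic acid, 8.02 and 8.56 with imidacloprid, 8.65 and 8.84 with clothianidin, and 9.24 and 8.84 untreated. Only salicylic acid replicate 2 stood apart for this gene. The actin 3′ minus 5′ difference was 1.41 on this array and 0.74 on salicylic acid replicate 1. In the untreated pair it was 2.17 on replicate 2 and 0.85 on replicate 1, and replicate 2 was lower on 21 of 33 probe sets, by up to -1.72 for rpl36. In the clothianidin pair it was 1.75 on replicate 2 and 1.04 on replicate 1, and replicate 2 was lower on 16 of 33. In the imidacloprid pair it was 1.11 on replicate 2 and 0.87 on replicate 1, and replicate 2 was lower on 17 of 33. The part of RNA integrity in these differences was not tested.

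Imidacloprid leaves were compared with salicylic acid leaves as well. The median imidacloprid minus salicylic acid difference was -0.32, but it was -0.76 within replicate 1 and -0.01 within replicate 2. Limma called 0 of 33 at an adjusted p under 0.05, where it called 0.0835% of all probe sets, and 8 of 33 were lower at an unadjusted p under 0.05, against 5.5% of all probe sets. These 8 became 4 without imidacloprid replicate 2 or salicylic acid replicate 1, and 15 without salicylic acid replicate 2. On 11 probe sets both imidacloprid arrays lay below both salicylic acid arrays, against 15.9% of all probe sets. The lowest differences were -1.42 (SE 0.27) for rps18 and -1.11 (SE 0.15) for rps3, and both held within each replicate, at -1.73 and -1.11 for rps18 and at -1.21 and -1.01 for rps3. Between clothianidin and salicylic acid the median difference was 0.37, with 0.01 within replicate 1 and 0.62 within replicate 2. Limma called 0 of 33 there and 0% of all probe sets, and 0 of 33 had an unadjusted p under 0.05 in either direction, against 0.572% of all probe sets lower and 0.646% higher.

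Over the 4 groups together, both imidacloprid arrays were the 2 lowest of the 8 for 11 of 33 probe sets, against 10.8% of all probe sets. These were rpl2, rpl22, rpl23, rpl32, rpl33, rps3, rps18, clpP, ccsA, matK and ycf1. Both untreated arrays were the 2 highest for 11 of 33 probe sets, against 4.18% of all probe sets, and matK was the only gene in both counts. Both clothianidin arrays were the 2 lowest for 0 of 33, against 1.11% of all probe sets, and both salicylic acid arrays for 0 of 33, against 3.49%.

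**Figure D3:**
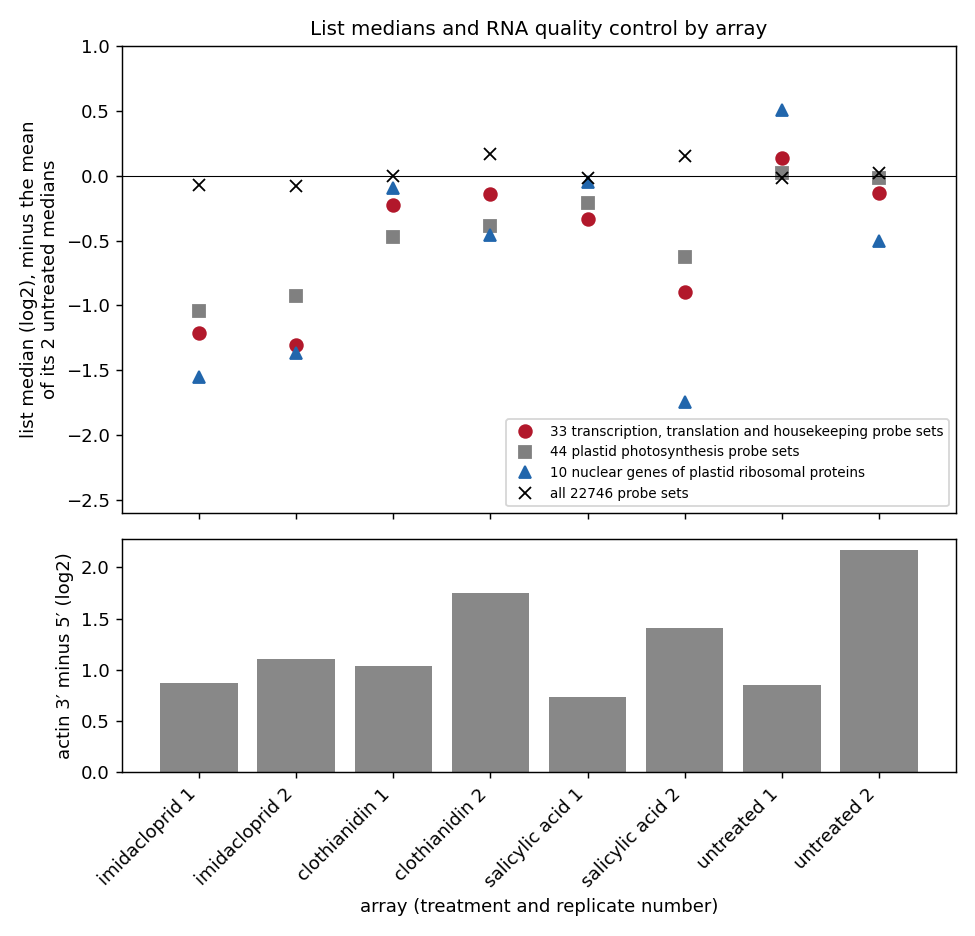
Upper panel: median log2 value on each array of the 33 probe sets, of 44 plastid photosynthesis probe sets, of 10 nuclear genes for plastid ribosomal proteins and of all 22746 probe sets, each minus the mean of its 2 untreated medians. Lower panel: actin 3′ minus 5′ difference (log2) on the same arrays, between 0.74 and 2.17; replicate 2 has the higher actin difference in every group.

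In the order of the plastid annotation (TAIR10.1, used for gene order only), 9 of the measured ribosomal protein and polymerase genes lie between rpl23 and rpoA, both included. All 9 were lower with imidacloprid than in untreated leaves without overlap, against 23.8% of all probe sets. Their median difference was -1.54, with a range from -1.94 (rpl36) to -0.65 (rpl2). The pattern within this run was noticed after the values were seen, and it was not tested. At one end rpl2, rpl23, rpl22 and rps3 differed little between replicates of a group, and the widest gap, replicate 2 minus replicate 1, was -0.54 for rpl23 with imidacloprid. The gene rps19, which lies among them, had wider gaps of -0.97 with imidacloprid and -1.10 with salicylic acid, the second of them close to that of rpoA. At the other end, in rpl16, rpl14, rpl36 and rpoA, untreated replicate 2 lay below untreated replicate 1 by -1.30, -0.73, -1.72 and -0.73, and salicylic acid replicate 2 lay below salicylic acid replicate 1 by -1.74, -1.61, -1.22 and -1.11. The clothianidin gaps of these 4 genes, in the same order, were -0.58, -0.28, -0.69 and 0.03. Their imidacloprid replicates were close, with -0.15 for rpl16 as the widest gap.

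The run of rpoB, rpoC1, rpoC2 and rps2, all 4 measured, had a median imidacloprid minus untreated difference of -0.95 and a range from -1.21 to -0.74. The genes clpP, rps12, rpl20, rps18 and rpl33, 5 neighbours in the annotation, were all measured. Leaving rps12 aside, they ranged from -1.65 (rps18) to -0.62 (clpP). For rps12 the differences were -0.84 by set A and -0.05 by set B. Its transcript is joined from separately transcribed parts, so whether each set measures the part in this run is not known.

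**Figure D4:**
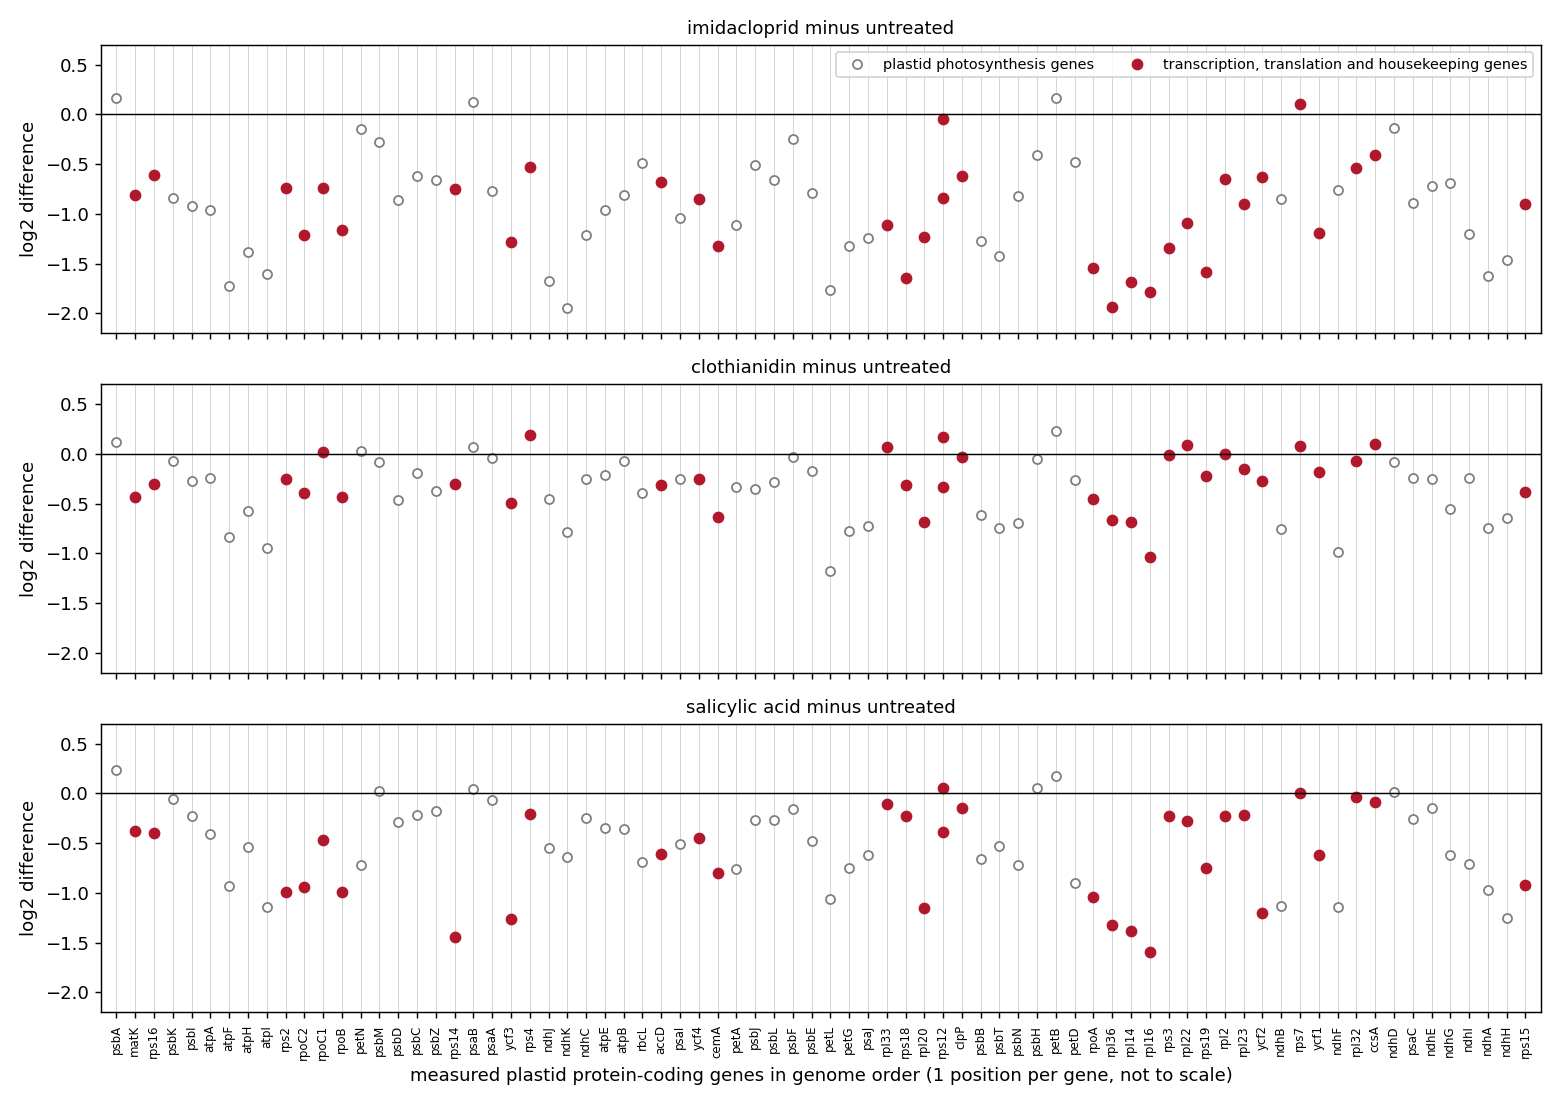
Log2 differences of imidacloprid, clothianidin and salicylic acid leaves from untreated leaves (panels from top to bottom) for measured plastid genes in the order of the annotation, 1 position per gene and not to scale. Filled points are the 33 probe sets and open points the 44 plastid photosynthesis probe sets; in the top panel both kinds lie mostly below 0, and in the middle panel they lie nearer to it.

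The plastid genes for photosynthesis were set beside them. Over 44 probe sets for psa, psb, pet, atp, ndh and rbc genes the median difference from untreated leaves was -0.85 with imidacloprid, -0.27 with clothianidin and -0.49 with salicylic acid, beside -0.90, -0.27 and -0.47 for the 33 probe sets described here. Limma called 1 of the 44, where it called 0.312% of all probe sets. This was psaJ, with an imidacloprid minus untreated difference of -1.24 and an adjusted p of 0.0466. The lowest differences were -1.95 for ndhK and -1.77 for petL, and the highest were 0.16 each for petB and psbA. The contrasts share the untreated arrays, and no test of one list against the other was made. For mitochondrial genes, 18 probe sets had a median imidacloprid minus untreated difference of 0.47, from -1.69 and -0.33 (both nad1) to 2.17 (nad6) and 2.45 (cox2), none called. Without imidacloprid replicate 2 this median was -0.13, and without imidacloprid replicate 1 it was 0.94.

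Nuclear genes that supply the same machinery were taken from lists of known subunits and partners. Of 41 nuclear genes for plastid ribosomal proteins, 10 had a probe set assigned to that gene alone. All 10 had a lower mean with imidacloprid than in untreated leaves, without overlap (23.8% of all probe sets), with a median difference of -1.34. The median was -2.01 within replicate 1 and -0.69 within replicate 2, and -0.80 without untreated replicate 1. Limma called 0 of 10, where it called 0.312% of all probe sets, and 2 of 10 were lower at an unadjusted p under 0.05, where 10.6% of all probe sets were. The lowest, AT4G01310, had values of 9.66 and 9.62 with imidacloprid, 11.39 and 11.25 with clothianidin, 11.56 and 9.71 with salicylic acid, and 11.97 and 10.85 untreated. AT4G17560 was next at -1.74, and the smallest differences were -1.24 for AT1G29070 and -1.04 for AT3G54210. As in the plastid set, salicylic acid replicate 2 was near the imidacloprid arrays for AT4G01310. With clothianidin the median of the 10 genes was -0.21, and with salicylic acid it was -0.63, both against untreated leaves.

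Other nuclear partners were measured in small numbers. The phage-type polymerase gene AT5G15700, 1 of 2 listed, had values of 4.52 and 4.67 with imidacloprid, 4.33 and 4.95 with clothianidin, 3.80 and 4.91 with salicylic acid, and 3.84 and 4.53 untreated. Its groups overlapped, and its imidacloprid minus untreated difference was 0.41 (SE 0.47). Of 14 listed nuclear genes of the Clp protease system, not all of them for subunits of the protease itself, 5 were measured. Their imidacloprid minus untreated differences ran from -0.90 (AT1G68660) and -0.72 (AT4G12060) to -0.17 (AT4G25370) and -0.09 (AT1G09130). Their median of -0.57 was -0.28 without untreated replicate 1, -0.32 without imidacloprid replicate 2 and -0.86 without untreated replicate 2. Of 5 partners in cytochrome c maturation and photosystem I assembly 3 were measured, with differences of -1.78 for AT1G49380, -0.88 for AT1G22700 and -0.58 for CcdA. Their median was -0.88, and -1.46 without untreated replicate 2. None of these 9 genes was called by limma in imidacloprid against untreated leaves, where it called 0.312% of all probe sets. No probe set was assigned to 1 gene alone among the 6 sigma factors, the 13 polymerase-associated proteins or the 4 nuclear acetyl-CoA carboxylase subunits.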

How the data were processed

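Each array measured total RNA from 100 mg of leaf tissue. The authors deposited log2 values, 1 per probe set and array. The submitters' processing notes name RMA and affy for them; versions, order of steps and any centring are not given in the sources used here. How plastid transcripts were primed for labelling is also not given. Of 22810 probe sets, 64 controls were left out. Genes were named from the platform's probe table, in which 13523 probe sets had 1 symbol, 493 several and 8730 no entry; the plastid genes were checked against the TAIR10.1 gene table, and mitochondrial genes were matched by symbol. No coordinates are given because the files name no build, and no sequences were available for these genes.

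All 8 arrays were fitted in limma 3.58.1 (R 4.3.3; lmFit, eBayes, a mean per group, 4 residual degrees of freedom, prior 0.766), and the 6 pairwise differences were tested, two-sided. P-values were adjusted by Benjamini-Hochberg over 22746 probe sets, with a call at 0.05. The fit was also run on simulated data with independent noise. These hold no effect shared by the probe sets of an array, so nothing is concluded from them here. Intervals are 95% intervals from the same fit. Only 2 arrays per group limit the precision. Values on every array are given for all genes other than rps and rpl, and for the rps and rpl probe sets with the 6 lowest and 3 highest imidacloprid minus untreated differences; of each other list the 2 lowest and 2 highest are named. The second rps12 probe set was added as its pair. The members, lists and alternatives were chosen with earlier results of these data known. Alternatives covered scaling, a filter on dim probe sets, 1 probe set per gene, the variance model, the arrays in the fit, a replicate block, a 2-fold threshold and leaving out each array. Leaving out both arrays of highest actin difference, keeping only probe sets with 1 gene ID, and leaving out arrays for the other lists were alternatives chosen after seeing the data. The arrays of highest actin difference were picked by another pair of actin control probe sets than the pair whose differences are given above. Figures used matplotlib 3.10.9 (Python 3.11.15).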

Additional observations from a re-analysis of the deposited data

How the results depend on the processing

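The count of called genes stayed at 0 in all 6 contrasts under every alternative but one kind: without salicylic acid replicate 1, or without salicylic acid replicate 2, rps3 was called in imidacloprid against untreated leaves (adjusted p 0.0403), so that leaving out single arrays gave 0 to 1 called. The replicate block called 0 of 33 in every contrast. The labels do not say that a replicate number marks the same experiment in each group. Replicate differences correlated between -0.002 and 0.523 over pairs of groups, above 0.1 in 4 of 6 pairs (over the 33 probe sets, between -0.12 and 0.59, in 5 of 6), so a partly shared effect of the number was not set aside and the block was kept as an alternative. When single arrays were left out, the median difference ranged from -1.02 to -0.86 for imidacloprid minus untreated, -0.28 to -0.09 for clothianidin minus untreated, -0.85 to -0.19 for salicylic acid minus untreated, 0.63 to 0.74 for clothianidin minus imidacloprid, -0.67 to -0.01 for imidacloprid minus salicylic acid and -0.02 to 0.59 for clothianidin minus salicylic acid. At an unadjusted p under 0.05, the 21 genes lower in imidacloprid than in untreated leaves became 11 without untreated replicate 1, 13 without untreated replicate 2, 12 or 11 without an imidacloprid array and 11 without both arrays of highest actin difference. The 13 genes higher with clothianidin than with imidacloprid became 8 without either clothianidin array, 20 without either salicylic acid array, and 6 after centring on medians or without both arrays of highest actin difference. The 8 genes lower with imidacloprid than with salicylic acid became 4 to 15. Centring on medians moved the median over all probe sets to -0.19 for clothianidin minus imidacloprid and 0.18 for imidacloprid minus salicylic acid, and that of the 33 probe sets to 0.54 and -0.18. Some differences near 0 changed sign: imidacloprid minus untreated for rps12 set B was 0.02 centred on medians, 0.15 after repeated quantile normalization, and -0.17 to 0.07 without an imidacloprid array. Clothianidin minus imidacloprid for rps12 set A was -0.19 to 1.21 when single arrays were left out. For rps7 it was -0.07 to 0.04 when single arrays were left out and 0.04 without both arrays of highest actin difference. Clothianidin minus salicylic acid for rps14 was -0.14 without salicylic acid replicate 2 and 2.42 without salicylic acid replicate 1. The causes were not tested.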
